A study of Homo sapiens with 6 samples.

Results

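The 43 genes described here encode 20 lysosomal hydrolases and cofactors, 5 lysosomal membrane proteins, 15 subunits and accessory proteins of the vacuolar proton pump (V-ATPase), and 3 transcription factors that regulate such genes. They were taken by gene symbol from the 61859 genes of a count table. Each of the 43 had a row in it, and each passed the filter on low counts that left 16411 genes for testing. The study measured RNA by sequencing in IOMM-Lee, an established human cell line from a malignant meningioma. The 3 hypoxia libraries came from cells kept for 48 h at 0.2% O2, and the 3 normoxia libraries are the labelled controls of the same duration, whose oxygen level the labels do not give. Both groups are this 1 line in the same serum-containing medium, with no genetic change named in the labels, and the labels call the replicates biological. How the replicate cultures were separated is not given in the sources used here. The p-values set the difference between the groups against the spread between libraries within a group.

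Lysosomes are the acidic compartments in which cells degrade proteins, lipids and sugar chains delivered by endocytosis and autophagy. Their hydrolases are made in the secretory pathway and mostly delivered by mannose 6-phosphate receptors. The lumen is acidified by the V-ATPase, a pump with a membrane-bound V0 sector that carries protons and a cytosolic V1 sector that hydrolyses ATP. TFEB, TFE3 and MITF are related factors that bind E-box motifs near the start sites of many of these genes. When the kinase complex mTORC1 is active at the lysosome, it phosphorylates TFEB and TFE3 and holds them in the cytosol, so that their RNA level is only a part of their control.

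The libraries held 10619864 to 18447885 counts in hypoxia and 14685317 to 19554178 in normoxia. A floor of 3 counts therefore equals 0.133 to 0.315 CPM, the count scaled to the library total times its TMM factor, and it covers counting error only. Mitochondrially encoded genes took 2.05 to 3.05% of counts in hypoxia and 6.42 to 7.29% in normoxia. The first principal component, with 80.9% of the variance, separated the groups, and the second, with 7.83%, set hypoxia replicate 3 apart from the other hypoxia libraries. Of the meningioma markers, VIM was at 7199.7, 5648 and 5544 CPM in hypoxia and 2593, 3089.5 and 3446 CPM in normoxia, and DSP, CRABP2 and MUC1 were also higher in hypoxia. DSP averaged 273 CPM in hypoxia and 90.8 CPM in normoxia, CRABP2 184 CPM in hypoxia and 3.17 CPM in normoxia, and MUC1 25.7 CPM in hypoxia and 6.02 CPM in normoxia. The part of this shift in the results below was not tested. SSTR2 was scarce and lower in hypoxia, averaging 0.299 CPM in hypoxia and 0.841 CPM in normoxia (log2 -1.56, adjusted p 0.0304 in edgeR). Leaving out 1 library took its adjusted p to as much as 0.124. CDH11 averaged 0.656 CPM in hypoxia and 1.16 CPM in normoxia and was not called (adjusted p 0.112). PGR and PTGDS were at 0 to 0.105 CPM. The 7 leukocyte and macrophage markers summed to 1.73 to 3.05 CPM in hypoxia and 2.56 to 3.01 CPM in normoxia. CD14 was at 0 in every library but hypoxia replicate 3. The 4 osteoclast markers summed to 0.105 to 0.305 CPM in hypoxia and 0.116 to 0.929 CPM in normoxia, and the 4 endothelial ones to 1.68 to 4.92 CPM in hypoxia and 3.23 to 4.13 CPM in normoxia. The 3 epithelial markers summed to 0.0600 to 0.210 CPM in hypoxia and 0.175 to 0.354 CPM in normoxia.

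Many of the 43 genes differed between hypoxia and normoxia, in both directions and mostly by less than 2-fold. By edgeR's quasi-likelihood test, with p-values adjusted after Benjamini and Hochberg for every gene tested, 14 were higher in hypoxia, 11 were lower and 18 did not pass the threshold of 0.05. A gene past that threshold is said to be called. The share called, 58.1%, was close to the 62.2% of all tested genes called, of which 31.2% were higher and 31.0% lower. In 27 of the 43 no hypoxia library reached a normoxia value, against 67.9% of all tested genes. The changes of the 43 ran from -1.63 to 1.88 on the log2 scale, with a median of 0.027 beside 0.0093 for all tested genes. Their median absolute log2 change was 0.45, beside 0.71 for all tested genes. A called change of at least 2-fold was seen for 7 of the 43, or 16.3%, beside 33.9% of all tested genes. As RNA came from whole cultures, fewer cells of a type and less RNA per cell cannot be told apart.

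The share called was 66.7% for the regulators, 80.0% for the hydrolases and cofactors and 46.7% for the V-ATPase genes. That of all tested genes was 62.2%. Of the 3 regulators, 2 were higher. Of the 20 hydrolases and cofactors, 8 were higher, 8 lower and 4 not called. Of the 15 V-ATPase genes, 4 were higher, 3 lower and 8 not called. Of the 5 membrane proteins none was called by edgeR, at unadjusted p under 0.05 none, and by DESeq2 none. That is no trait of such proteins at large, as 82.4% of 17 further tested lysosomal membrane proteins were called. Scaling by library totals alone, which moves the median of all tested genes to -0.30 on the log2 scale, gave 12 members higher and 19 lower. Without hypoxia replicate 3 there were 15 higher and 14 lower.

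**Figure D1:**
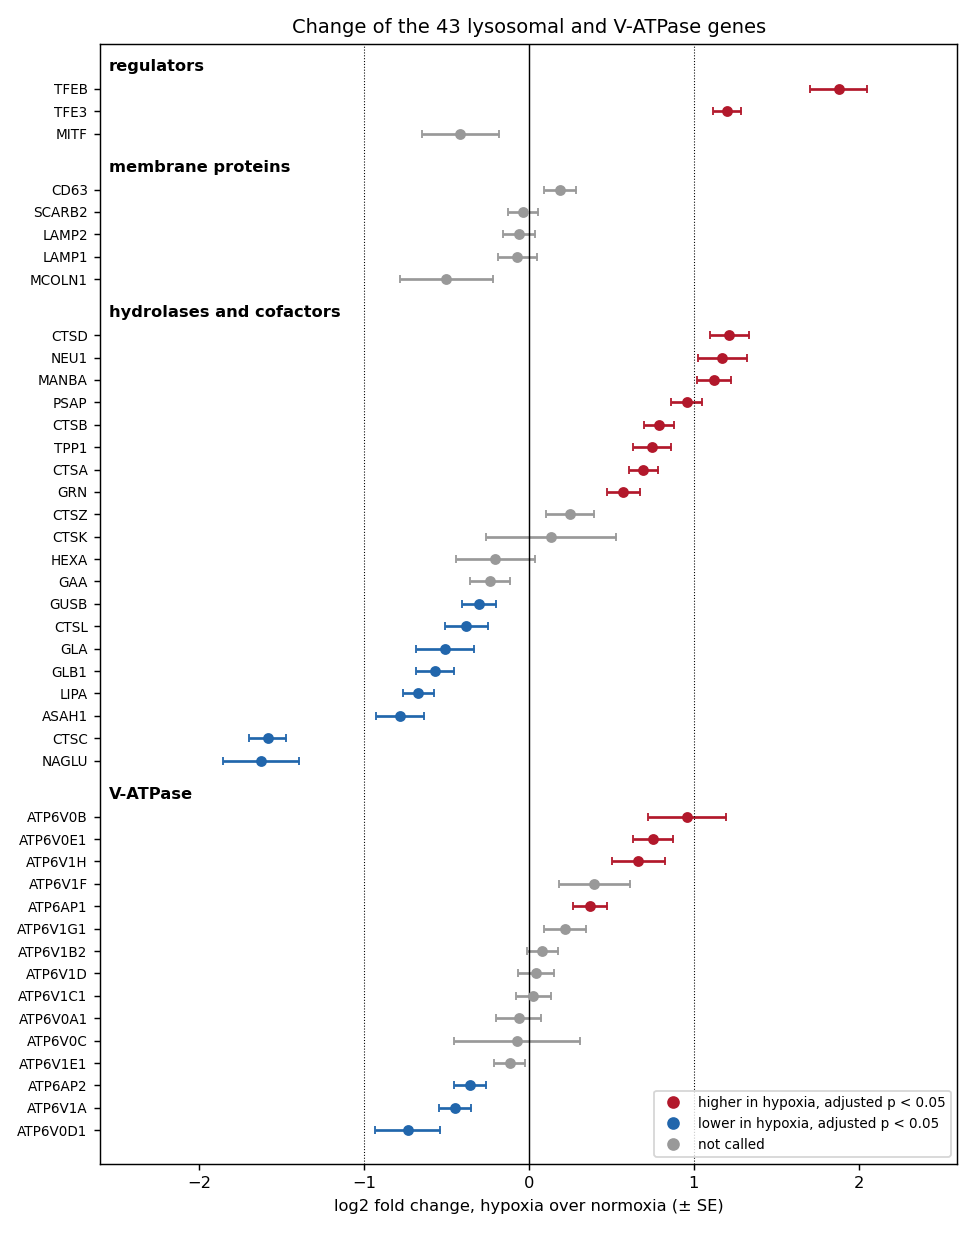
Log2 fold change of each of the 43 genes, hypoxia over normoxia, with its SE as a bar, grouped by class and ordered within each class. Filled points in red and blue passed the adjusted p threshold of 0.05 and grey points did not; TFEB at 1.88 and NAGLU at -1.63 are the ends of the range, and dotted lines mark 2-fold changes.

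TFEB and TFE3, the regulators best known for driving lysosomal genes, both rose. TFEB (ENSG00000112561, chromosome 6, 41683978 to 41736259; GRCh38, GENCODE 29) was at 15.1, 17.7 and 14.2 CPM in hypoxia and at 3.89, 4.34 and 4.54 CPM in normoxia. Every hypoxia library lay above every normoxia library, with 15.7 ± 1.79 CPM in hypoxia and 4.26 ± 0.331 CPM in normoxia (mean ± SD, n = 3 each). The log2 change was 1.88 ± 0.17 (edgeR estimate ± SE, adjusted p 5.45e-06), a 3.68-fold rise and the largest change among the 43 genes.

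TFE3 (ENSG00000068323, chromosome X, 49028726 to 49043486) was the most abundant of the 3 regulators. It was at 158, 161 and 165 CPM in hypoxia and 71.2, 71.3 and 67.8 CPM in normoxia. The groups were tight and far apart, and the change was 1.20 ± 0.086 on the log2 scale (2.30-fold, adjusted p 9.41e-07 in edgeR). Per kilobase of exon, TFE3 stood at 37.6 CPM in hypoxia and 16.4 CPM in normoxia, against 2.78 and 0.754 CPM for TFEB in hypoxia and normoxia.

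MITF (ENSG00000187098, chromosome 3, 69739435 to 69968337), the family member best known from melanocytes, did not pass the test. It was at 5.47, 5.79 and 10.1 CPM in hypoxia and 9.60, 9.77 and 9.72 CPM in normoxia, so that hypoxia replicate 3 alone reached the normoxia level. The log2 difference was -0.42 ± 0.23 (adjusted p 0.141 in edgeR). Without hypoxia replicate 3 it was -0.81 with an adjusted p of 0.00141, a call of lower. Library totals alone (-0.73, adjusted p 0.018) and no filter on low counts (-0.53, adjusted p 0.0466) also gave a call. The 4 melanocyte markers summed to 3.78 to 6.10 CPM in hypoxia and 18.3 to 21.7 CPM in normoxia. Among them PMEL was not called (log2 -0.19, adjusted p 0.757 in edgeR). MLANA was lower (log2 -0.95, adjusted p 0.0235), but leaving out 1 library took its adjusted p to as much as 0.0944. DCT, a pigment enzyme, was at 1.26, 2.74 and 1.56 CPM in hypoxia and 11.9, 14.97 and 14.4 CPM in normoxia (log2 -2.91, adjusted p 4.88e-06 in edgeR), while TYR was at 0 in 5 of the 6 libraries. Their part in the MITF values was not tested.

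RefSeq promoters (GRCh38.p14, 250 bases before to 50 after the annotated start) matched 30 of the 43 genes, and 10 of these held the E-box that TFEB, TFE3 and MITF bind. Windows of 7 of the 10 are shown as examples with each kind of call, and NEU1 (higher in hypoxia), CD63 and ATP6V1G1 (both not called) are the others. For 23 of the 30, the bases just after the start occur within a GENCODE 29 transcript of the gene on the same strand. That place need not be a transcript start. Only the first listed promoter of each gene was searched, so other start sites are not covered. Positions are counted from the start, every window is printed along the gene's own strand, and CACGTG is in capitals.
LAMP1, chr13:113297039-113297248, plus strand: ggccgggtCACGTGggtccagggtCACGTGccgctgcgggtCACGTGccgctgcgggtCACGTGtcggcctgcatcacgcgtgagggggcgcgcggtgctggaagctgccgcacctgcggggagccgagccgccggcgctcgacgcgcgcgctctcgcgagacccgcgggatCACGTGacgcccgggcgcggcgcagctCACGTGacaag
MCOLN1, chr19:7522524-7522623, plus strand: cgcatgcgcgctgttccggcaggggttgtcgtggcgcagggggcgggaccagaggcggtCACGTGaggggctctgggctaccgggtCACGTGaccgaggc
GAA, chr17:80101481-80101580, plus strand: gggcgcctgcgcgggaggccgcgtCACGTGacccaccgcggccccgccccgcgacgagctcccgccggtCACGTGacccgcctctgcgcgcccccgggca
CTSA, chr20:45891235-45891334, plus strand: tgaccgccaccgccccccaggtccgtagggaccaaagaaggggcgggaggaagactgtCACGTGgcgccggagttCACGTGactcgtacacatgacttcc
CTSD, chr11:1763928-1764027, minus strand: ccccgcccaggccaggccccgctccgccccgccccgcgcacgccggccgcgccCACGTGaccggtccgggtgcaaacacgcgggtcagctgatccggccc
ATP6V0B, chr1:43974860-43974959, plus strand: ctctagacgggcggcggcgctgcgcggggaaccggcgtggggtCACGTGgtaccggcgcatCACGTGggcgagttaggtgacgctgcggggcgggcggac
ATP6V0D1, chr16:67481158-67481257, minus strand: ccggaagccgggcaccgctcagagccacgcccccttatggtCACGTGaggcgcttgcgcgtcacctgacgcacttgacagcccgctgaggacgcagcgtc
The LAMP1 window runs from -200 to 10 and holds 6 E-boxes, and the other windows run from -100 to -1. Those of MCOLN1, GAA, CTSA and ATP6V0B hold 2 each, and those of CTSD and ATP6V0D1 hold 1 each. Of the 10, CTSA, CTSD, NEU1 and ATP6V0B were higher in hypoxia, ATP6V0D1 was lower, and LAMP1, CD63, MCOLN1, GAA and ATP6V1G1 were not called.

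The E-box CACGTG was in 10 of the 30 promoters, or 33.3%, beside 7.43% of 27305 RefSeq promoters of the same length and 10% of the 10993 whose genes were tested. It reads the same on both strands. By call, it was in 4 of 9 promoters of genes that were higher, 1 of 8 of genes that were lower and 5 of 13 of genes not called. The longer lysosomal form TCACGTGA, which contains the E-box, was in 6 of the 30, beside 1.04% of the 27305 and 1.93% of the 10993. Those were the promoters of LAMP1, MCOLN1, CTSA, GAA, ATP6V0D1 and ATP6V1G1, of which only CTSA was higher in hypoxia. The longest form searched, CACGTG directly preceded by GT and followed by AC, was in 3 of the 30, those of MCOLN1, GAA and ATP6V1G1, beside 0.381% of the 27305 and 0.755% of the 10993, and no gene with it was called. The hypoxia response core, searched on both strands, was in 16 of the 30 as ACGTG, beside 21.6% of the 27305 and 27% of the 10993. It was in 18 of the 30 (60%) as GCGTG, beside 36.3% of the 27305 and 50.3% of the 10993. Every CACGTG contains an ACGTG. The promoter searched for each of the 3 regulators held no E-box. Of the hypoxia response cores that of MITF held ACGTG and that of TFEB held GCGTG. These are matches of letters in these windows and not measured binding. E-boxes near many of these genes were known beforehand, so their shares over the 30 promoters are no result of these data. The counts by call rest on few promoters. The share called among all tested genes with each motif was not computed, so nothing is drawn from those counts.

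**Figure D2:**
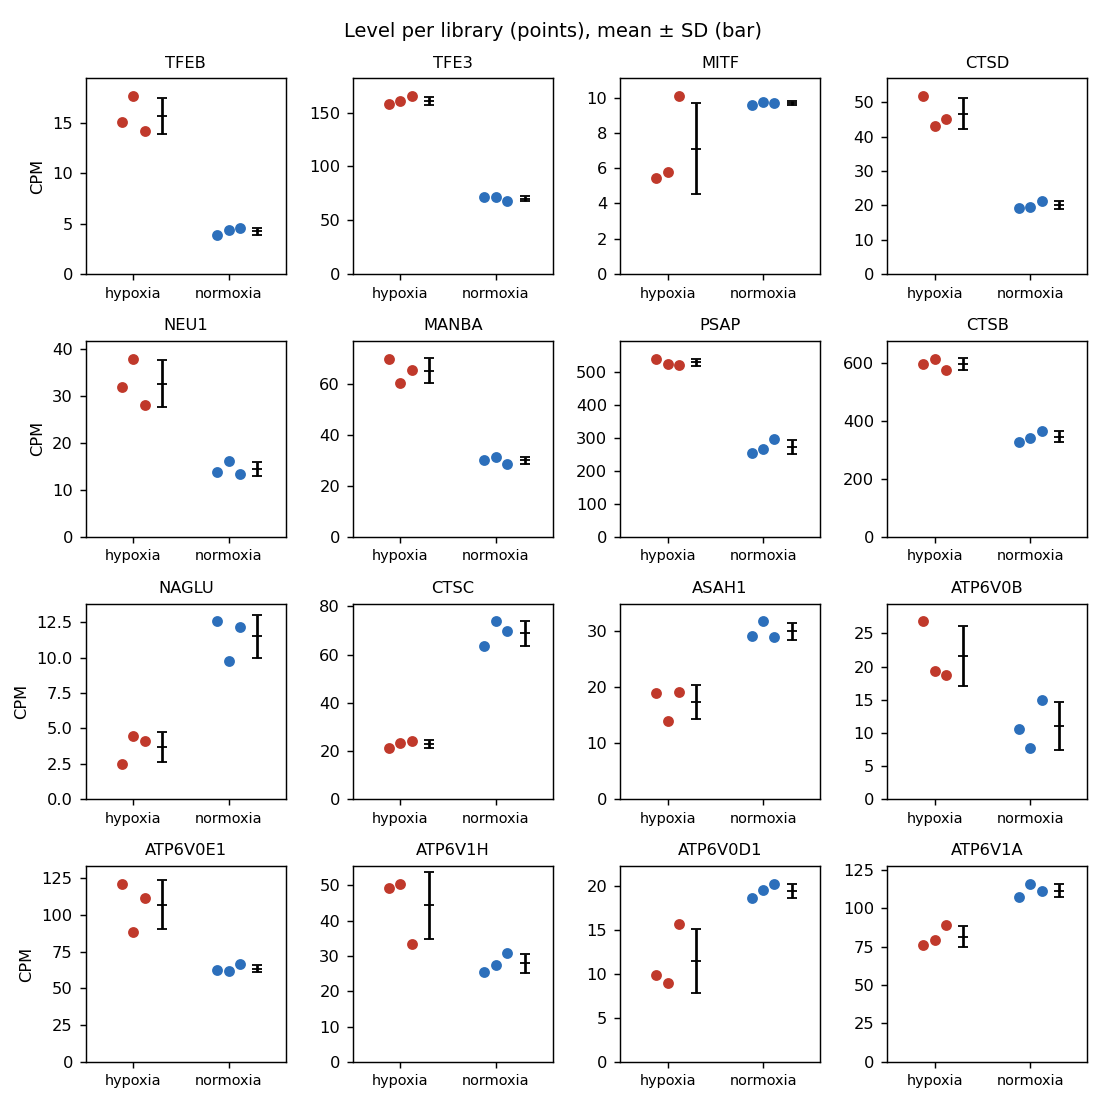
CPM of 16 genes in each library, with hypoxia left of normoxia in each panel, points for the 3 libraries and a bar for the mean ± SD; each panel has its own axis from 0. TFEB, TFE3, CTSD, NEU1, MANBA, PSAP, CTSB, ATP6V0B, ATP6V0E1 and ATP6V1H lie higher in hypoxia, NAGLU, CTSC, ASAH1, ATP6V0D1 and ATP6V1A lie lower, and in MITF hypoxia replicate 3 reaches the normoxia values.

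The hydrolases split evenly between rises and falls. By mean level per kilobase over the 6 libraries the highest 3, PSAP, CTSB and GRN, rose, and CTSL, next in order, fell. That mean includes the rises themselves. In normoxia alone CTSL, at 41.3 CPM per kilobase, stood above GRN, at 39.0. Of 8 proteases, 4 were higher and 2 lower. Of 8 glycosidases, 2 were higher and 4 lower, and of 4 lipid hydrolases and cofactors 2 moved each way. The 8 members that rose had a median level of 29.6 CPM per kilobase in hypoxia and 17.8 in normoxia, and the 8 that fell one of 7.17 in hypoxia and 9.40 in normoxia. The 4 not called had medians of 7.20 CPM per kilobase in hypoxia and 8.002 in normoxia.

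CTSD, cathepsin D, the main aspartic protease of lysosomes, rose most among the hydrolases. CTSD (ENSG00000117984, chromosome 11, 1752752 to 1764573) was at 51.8, 43.1 and 45.2 CPM in hypoxia and 19.3, 19.7 and 21.4 CPM in normoxia. The mean was 46.7 ± 4.56 CPM in hypoxia and 20.1 ± 1.09 CPM in normoxia (SD, n = 3 each), with no overlap. The log2 change was 1.21 ± 0.12 (2.32-fold, adjusted p 8.27e-06 in edgeR). Of its 3126 exon bases, 1304 are shared on the same strand with AC068580.4, so its level is uncertain. AC068580.4 itself was at 0.0885 to 1.05 CPM.

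CTSB, cathepsin B, a cysteine protease, was the most abundant protease of the 43 genes. It was at 597, 613 and 573 CPM in hypoxia and 328, 339 and 366 CPM in normoxia, again without overlap. It was 1.73-fold higher in hypoxia (log2 0.79 ± 0.092, adjusted p 3.1e-05 in edgeR). The serine-type enzymes moved the same way. TPP1, which removes tripeptides from protein ends, was at 315, 291 and 239 CPM in hypoxia and 161, 182 and 161 CPM in normoxia (log2 0.75 ± 0.11, adjusted p 0.000221). CTSA, the carboxypeptidase that also protects the enzymes GLB1 and NEU1, was at 97.3, 93.7 and 91.9 CPM in hypoxia and 58.0, 58.2 and 58.6 CPM in normoxia (log2 0.70 ± 0.088, adjusted p 5.65e-05). CTSA shares 1668 exon bases with genes on the other strand, and the strand setting of the counting is not given in the sources used here. TPP1 shares 756 of its 6544 exon bases on the same strand with AC091564.7.

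CTSC, cathepsin C or dipeptidyl peptidase I, which activates serine proteases of immune cells, was the protease that fell most. CTSC (ENSG00000109861, chromosome 11, 88293592 to 88337787) was at 21.2, 23.3 and 24.2 CPM in hypoxia and 63.4, 73.8 and 69.6 CPM in normoxia. Its mean was 22.9 ± 1.54 CPM in hypoxia and 68.9 ± 5.21 CPM in normoxia (SD, n = 3 each), 3.00-fold lower in hypoxia (log2 -1.59 ± 0.11, adjusted p 8.31e-07 in edgeR). CTSL, cathepsin L, was also lower, by less, at 90.8, 72.1 and 62.6 CPM in hypoxia and 95.2, 95.2 and 103 CPM in normoxia (log2 -0.38 ± 0.13, adjusted p 0.0249). The CTSL call was lost when hypoxia replicate 2 or normoxia replicate 3 was left out, at an adjusted p of up to 0.0698. CTSL has 6 pseudogenes by name, with which reads could be shared.

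CTSK, the collagen-degrading cathepsin known from osteoclasts, was scarce and not called, at 1.68, 1.52 and 4.02 CPM in hypoxia and 2.61, 1.65 and 2.56 CPM in normoxia. CTSZ, a carboxypeptidase, was at 33.4, 32.01 and 38.2 CPM in hypoxia and 26.1, 26.2 and 35.2 CPM in normoxia (log2 0.25 ± 0.14, adjusted p 0.157). Normoxia replicate 3 lay among the hypoxia values of CTSZ, and without it the difference was called, at a log2 of 0.39 and an adjusted p of 0.0384.

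Among the glycosidases, NEU1 and MANBA rose more than 2-fold. NEU1 (ENSG00000204386, chromosome 6, 31857659 to 31862906), the sialidase that removes terminal sialic acid, was at 31.96, 37.9 and 28.0 CPM in hypoxia and 13.8, 16.1 and 13.4 CPM in normoxia. No library of one group reached the other, with means of 32.6 ± 5.00 CPM in hypoxia and 14.4 ± 1.43 CPM in normoxia (SD, n = 3 each) and a log2 change of 1.17 ± 0.15 (2.26-fold, adjusted p 5.41e-05 in edgeR). MANBA (ENSG00000109323, chromosome 4, 102630770 to 102760994), the beta-mannosidase that acts last on N-linked sugar chains, was at 69.7, 60.1 and 65.2 CPM in hypoxia and 30.0, 31.1 and 28.5 CPM in normoxia. It was 2.18-fold higher in hypoxia (log2 1.12 ± 0.11, adjusted p 6.19e-06). MANBA shares 1138 exon bases with the pseudogene LRRC37A15P on the same strand, which was at 0.244 to 2.42 CPM.

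NAGLU (ENSG00000108784, chromosome 17, 42536172 to 42544449), the alpha-N-acetylglucosaminidase of heparan sulfate breakdown, had the largest fall of the 43 genes. It was at 2.52, 4.47 and 4.08 CPM in hypoxia and 12.6, 9.77 and 12.2 CPM in normoxia. The hypoxia libraries lay well below every normoxia library, with means of 3.69 ± 1.03 CPM in hypoxia and 11.5 ± 1.51 CPM in normoxia (SD, n = 3 each). The log2 change was -1.63 ± 0.23, 3.09-fold lower in hypoxia (adjusted p 0.000122 in edgeR). NAGLU shares 379 of its 3004 exon bases on the same strand with AC067852.1.

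The other 3 glycosidases that fell did so by less than 2-fold. GLB1, the beta-galactosidase, was at 35.2, 44.0 and 40.9 CPM in hypoxia and 55.5, 61.1 and 62.0 CPM in normoxia (log2 -0.57 ± 0.11, adjusted p 0.00125 in edgeR). GLA, the alpha-galactosidase, was at 10.6, 9.55 and 15.004 CPM in hypoxia and 16.5, 16.6 and 17.6 CPM in normoxia (log2 -0.51 ± 0.18, adjusted p 0.0279). GUSB, the beta-glucuronidase, was at 35.8, 39.4 and 35.5 CPM in hypoxia and 45.7, 46.4 and 44.2 CPM in normoxia (log2 -0.30 ± 0.10, adjusted p 0.0244). Both GLA and GUSB lay near the threshold. The GLA call was lost when any library but hypoxia replicate 3 was left out, at an adjusted p of up to 0.102, and with the GC and length correction (adjusted p 0.103), and that of GUSB when hypoxia replicate 1, normoxia replicate 1 or normoxia replicate 2 was left out, at up to 0.0693. GUSB also has 11 pseudogenes by name.

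GAA and HEXA were not called. HEXA shares 617 of its 12611 exon bases on the same strand with AC009690.1. GAA, the acid alpha-glucosidase that degrades glycogen, was at 70.5, 73.5 and 55.8 CPM in hypoxia and 84.3, 74.2 and 76.4 CPM in normoxia (log2 -0.24 ± 0.12, adjusted p 0.107 in edgeR). Its groups did not overlap, and it was called lower with library totals alone (-0.55, adjusted p 0.00292) and with a correction for GC content and exon length (-0.63, adjusted p 0.00157). HEXA, the alpha subunit of the hexosaminidase that degrades gangliosides, was at 22.2, 22.8 and 11.04 CPM in hypoxia and 20.9, 21.8 and 21.0 CPM in normoxia, hypoxia replicate 3 being the low one.

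PSAP, the precursor of the saposins that present lipids to hydrolases, had the highest level per kilobase of all 43 genes. PSAP (ENSG00000197746, chromosome 10, 71816298 to 71851375) stood at 164 CPM per kilobase in hypoxia and 84.3 in normoxia. In CPM it was at 541, 527 and 523 in hypoxia and 254, 268 and 297 in normoxia, all hypoxia libraries lying above all normoxia libraries. The log2 change was 0.96 ± 0.095 (1.94-fold, adjusted p 9.23e-06 in edgeR). GRN, the precursor of the granulins that binds prosaposin, was at 221, 226 and 194 CPM in hypoxia and 141, 134 and 156 CPM in normoxia and also rose (log2 0.57 ± 0.10, adjusted p 0.000522).

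ASAH1 and LIPA, which both cleave lipids, fell. ASAH1, the acid ceramidase, was at 19.0, 13.9 and 19.1 CPM in hypoxia and 29.1, 31.7 and 28.9 CPM in normoxia. Means were 17.3 ± 2.96 CPM in hypoxia and 29.9 ± 1.55 CPM in normoxia (SD, n = 3 each), a log2 change of -0.78 ± 0.15 (1.72-fold lower in hypoxia, adjusted p 0.000828 in edgeR). LIPA, the acid lipase that frees cholesterol from its esters, was at 46.8, 44.4 and 45.6 CPM in hypoxia and 69.8, 72.6 and 75.4 CPM in normoxia (log2 -0.67 ± 0.094, adjusted p 0.000114). LIPA shares 200 exon bases with IFIT2 on the other strand, which was at 2.21, 1.12 and 2.16 CPM in hypoxia and 9.25, 8.98 and 9.95 CPM in normoxia.

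Summed over the 20 hydrolases and cofactors, hypoxia libraries held 2316, 2272 and 2116 CPM and normoxia libraries 1527, 1578 and 1649 CPM. PSAP and CTSB together made up 49.1, 50.2 and 51.8% of that sum in hypoxia and 38.1, 38.4 and 40.2% in normoxia. The other 18 genes summed to 1178, 1132 and 1019 CPM in hypoxia and 945, 972 and 986 CPM in normoxia. Most of the difference in the sum lay in these 2 genes. Without them the groups stayed apart narrowly. That order depended on the TMM scaling, and with library totals alone the normoxia sums of these 18 genes were the higher ones. The proteases summed to 1079 to 1208 CPM in hypoxia and 753 to 817 CPM in normoxia, and the lipid hydrolases and cofactors to 782 to 829 CPM in hypoxia and 494 to 557 CPM in normoxia. The glycosidase sums overlapped, at 255 to 292 CPM in hypoxia and 275 to 279 CPM in normoxia. For 29 further lysosomal hydrolases and cofactors, 27 of them tested and described below, the sums overlapped too. They were 909 to 963 CPM in hypoxia and 914 to 970 CPM in normoxia.

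**Figure D3:**
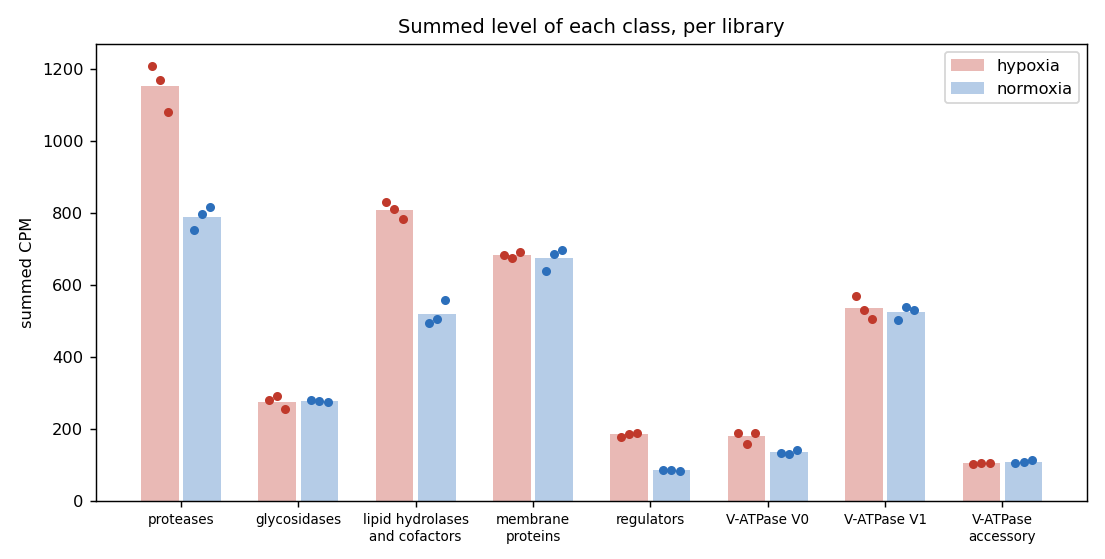
Summed CPM of each class, hypoxia left of normoxia, with a point per library and a bar for the mean of 3. Proteases, lipid hydrolases and cofactors, regulators and V0 subunits lie higher in hypoxia, while glycosidases, membrane proteins and V1 subunits overlap. CPM is TMM-scaled, and with library totals alone the V0 sums overlap as well.

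None of the 5 membrane proteins passed the test, although the library counts behind LAMP1, LAMP2, CD63 and SCARB2 were high. LAMP1, the main glycoprotein that lines the lysosomal membrane, was at 93.1, 90.0 and 121 CPM in hypoxia and 103, 107 and 109.6 CPM in normoxia (log2 -0.071 ± 0.12, adjusted p 0.624 in edgeR). LAMP2, its relative with a role in autophagy, was at 113, 107 and 126 CPM in hypoxia and 120.3, 127 and 113 CPM in normoxia (log2 -0.060 ± 0.10, adjusted p 0.613). In both, hypoxia replicate 3 was the highest hypoxia library and lay above or among the normoxia libraries.

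CD63, a tetraspanin of late endosomes and exosomes, had the second highest level per kilobase of the 43 genes, at 83.8 CPM per kilobase in hypoxia and 73.4 in normoxia. It was at 241, 218 and 203 CPM in hypoxia and 181, 193 and 206 CPM in normoxia (log2 0.19 ± 0.10, adjusted p 0.111). SCARB2, the receptor that carries glucocerebrosidase to lysosomes, was at 232, 255 and 232 CPM in hypoxia and 226, 249.5 and 261 CPM in normoxia (log2 -0.036 ± 0.093, adjusted p 0.753). The groups overlapped in both genes.

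MCOLN1, the calcium channel of the lysosomal membrane, was scarce, at 4.10, 3.76 and 8.28 CPM in hypoxia and 8.45, 7.21 and 7.80 CPM in normoxia (log2 -0.50 ± 0.28, adjusted p 0.146). Hypoxia replicate 3 alone was at the normoxia level. MCOLN1 shares 175 exon bases on the same strand with PNPLA6 and AC008878.2, of which PNPLA6 was at 49.8, 41.7 and 86.2 CPM in hypoxia, likewise highest in replicate 3, and 41.6, 37.8 and 39.3 CPM in normoxia. Its part in the MCOLN1 values was not tested. Without that library MCOLN1 was called lower (-1.02, adjusted p 0.000885), as was LAMP1 (-0.25, adjusted p 0.0155), and CD63 was called higher (0.22, adjusted p 0.0349). With library totals alone, 4 of the 5 membrane proteins were called lower and none higher. The correction for GC content and exon length gave LAMP2 higher (0.24, adjusted p 0.0384) and MCOLN1 lower (-0.76, adjusted p 0.0295), and MCOLN1 was also lower without the filter (-0.61, adjusted p 0.0332).

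The V-ATPase genes had a median absolute log2 change of 0.36, beside 0.68 for the hydrolases, and none of the 15 reached a 2-fold change. In the V0 sector, ATP6V0B and ATP6V0E1 were higher and ATP6V0D1 lower. In the V1 sector, 1 of 8 subunits was higher and 1 lower. The pump's 15 genes summed to 794 to 861 CPM in hypoxia and 742 to 783 CPM in normoxia, with V0 at 159 to 190 CPM in hypoxia and 131 to 140 CPM in normoxia, and V1 at 506 to 570 CPM in hypoxia and 503 to 539 CPM in normoxia. These sums depended on the TMM scaling. With library totals alone the pump sum was lower in hypoxia and the V0 sums overlapped.

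ATP6V0B (ENSG00000117410, chromosome 1, 43974487 to 43978295), a c-type subunit of the proton-carrying ring, was at 26.8, 19.3 and 18.7 CPM in hypoxia and 10.6, 7.76 and 14.9 CPM in normoxia. The highest normoxia library lay under the lowest hypoxia library, and the mean was 21.6 ± 4.51 CPM in hypoxia and 11.1 ± 3.60 CPM in normoxia (SD, n = 3 each). The log2 change was 0.96 ± 0.24 (1.94-fold, adjusted p 0.00517 in edgeR). ATP6V0E1 (ENSG00000113732, chromosome 5, 172983757 to 173035445), a small V0 subunit, was at 121, 88.7 and 112 CPM in hypoxia and 62.2, 62.1 and 66.4 CPM in normoxia. It was 1.69-fold higher in hypoxia (log2 0.75 ± 0.12, adjusted p 0.000277), and it has 4 pseudogenes by name.

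ATP6V0D1 (ENSG00000159720, chromosome 16, 67438014 to 67481237), which links the ring to the central stalk, was at 9.88, 8.94 and 15.6 CPM in hypoxia and 18.6, 19.5 and 20.2 CPM in normoxia. All hypoxia libraries were below normoxia, replicate 3 by the least, and the log2 change was -0.74 ± 0.20 (1.67-fold lower, adjusted p 0.00777 in edgeR). ATP6V0A1, the a1 subunit through which protons enter and leave, was not called, at 29.5, 39.4 and 42.5 CPM in hypoxia and 39.8, 39.5 and 37.4 CPM in normoxia. ATP6V0C, the main ring subunit, was listed at only 1.58, 2.54 and 1.20 CPM in hypoxia and 2.26, 1.89 and 1.28 CPM in normoxia. Of its 1498 exon bases, 1080 are shared on the same strand with AC093525.1 and AC093525.2, and it has 4 pseudogenes by name, so its level is uncertain.

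ATP6V1H, the regulatory subunit of V1, was the V1 gene that rose. It was at 49.3, 50.4 and 33.4 CPM in hypoxia and 25.4, 27.4 and 30.8 CPM in normoxia. Hypoxia replicate 3 lay near the normoxia libraries and the other 2 well above, and the log2 change was 0.66 ± 0.16 (1.58-fold, adjusted p 0.00447 in edgeR). With library totals alone it was not called (0.36, adjusted p 0.0655). ATP6V1A (ENSG00000114573, chromosome 3, 113747019 to 113812056), the catalytic subunit that hydrolyses ATP, was at 76.2, 79.3 and 89.3 CPM in hypoxia and 107, 116 and 111 CPM in normoxia. It was 1.37-fold lower in hypoxia (log2 -0.45 ± 0.10, adjusted p 0.00202). With the correction for GC content and exon length the ATP6V1A difference was -0.18 with an adjusted p of 0.109.

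The other 6 V1 genes were not called. ATP6V1B2, the partner of ATP6V1A in the catalytic hexamer, was at 124, 122 and 105 CPM in hypoxia and 109, 113 and 110.1 CPM in normoxia (log2 0.082 ± 0.10, adjusted p 0.475 in edgeR). The stalk subunits ATP6V1C1, ATP6V1D and ATP6V1E1 differed by 0.027, 0.042 and -0.12 on the log2 scale, and the direction of the first 2 turned with the scaling. ATP6V1D shares 269 exon bases on the other strand with EIF2S1, which was at 133, 125 and 144 CPM in hypoxia and 181, 196 and 209 CPM in normoxia, and without a stated strand setting their reads cannot be told apart there. ATP6V1G1, a peripheral stalk subunit, was at 59.0, 59.8 and 50.4 CPM in hypoxia and 43.4, 45.6 and 56.2 CPM in normoxia (log2 0.22 ± 0.13). ATP6V1F, a small subunit of the central stalk and 1 of the 5 genes with the highest levels per kilobase, was at 66.4, 38.0 and 35.7 CPM in hypoxia and 36.8, 33.2 and 35.9 CPM in normoxia. Hypoxia replicate 1 stood far above the other 5 libraries, and the log2 difference was 0.40 ± 0.22 (adjusted p 0.14).

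The pair of accessory proteins moved apart. ATP6AP1, which takes part in the assembly of V0, was at 45.7, 50.5 and 51.5 CPM in hypoxia and 40.0, 37.9 and 36.3 CPM in normoxia (log2 0.37 ± 0.10, 1.29-fold, adjusted p 0.00923 in edgeR). ATP6AP2, also known as the prorenin receptor, was at 56.7, 53.9 and 54.5 CPM in hypoxia and 65.8, 69.9 and 75.8 CPM in normoxia (log2 -0.36 ± 0.10, 1.28-fold lower, adjusted p 0.00825). Neither had overlapping groups. The ATP6AP1 call was lost without normoxia replicate 2 (adjusted p 0.0555). It was also lost under library totals alone, at a log2 of 0.063, and without the filter, at 0.25. That of ATP6AP2 was lost with the GC and length correction (-0.16, adjusted p 0.209), under which 7 of the 15 V-ATPase genes were called higher and 1 lower. Library totals alone gave 2 higher and 5 lower.

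**Figure D4:**
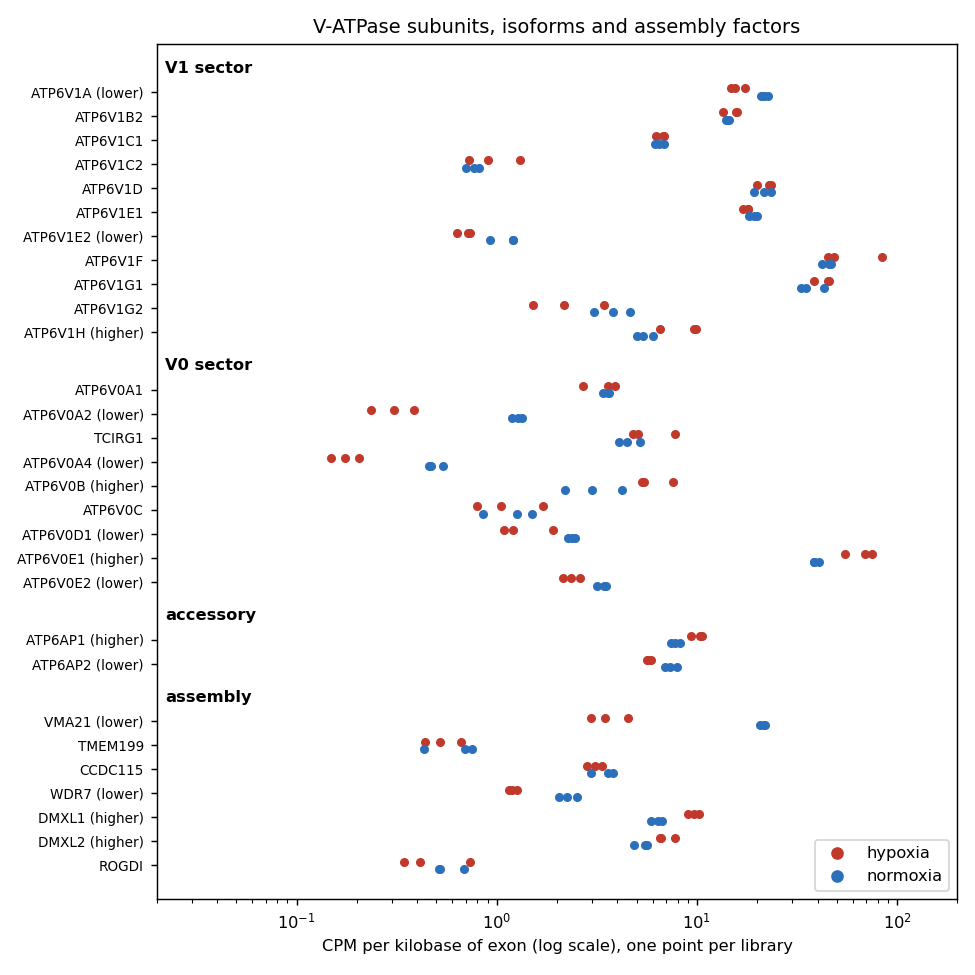
Level of each tested V-ATPase gene and assembly factor in CPM per kilobase of exon, on a log axis, with a point per library and hypoxia drawn above normoxia; names carry the call. Among the 15 genes, ATP6V0E1 (66.0 in hypoxia, 39.2 in normoxia) and ATP6V1F (59.2 in hypoxia, 44.7 in normoxia) have the highest means and ATP6V0C (1.18 in hypoxia, 1.21 in normoxia) the lowest.

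Per kilobase, the subunits of the pump were far from equal. ATP6V0E1, ATP6V1F and ATP6V1G1 stood at 66.0, 59.2 and 43.2 CPM per kilobase in hypoxia and at 39.2, 44.7 and 37.1 in normoxia. The catalytic ATP6V1A and ATP6V1B2 were at 15.9 and 14.99 in hypoxia and 21.7 and 14.1 in normoxia. ATP6V0D1 was at 1.40 in hypoxia and 2.37 in normoxia. The exon length sums the exons of all annotated transcripts, so genes with long rarely used exons are understated on this scale.

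**Figure D5:**
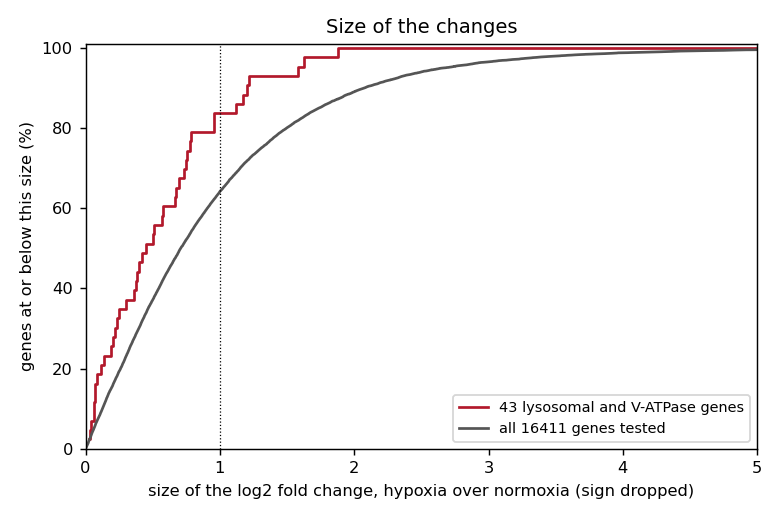
Cumulative percentage of genes (vertical axis) whose log2 change, sign dropped, is at most the value on the horizontal axis, for the 43 genes (red) and all 16411 tested genes (grey); a dotted line marks 2-fold. The medians are 0.45 for the 43 genes and 0.71 for all tested genes, and the red line lies above the grey one except at the very smallest changes.

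Other genes of the same machinery give the setting. Of 27 further tested hydrolases and cofactors, 8 were higher and 12 lower, or 74.1% called beside 62.2% of all tested genes, and library totals alone gave 6 higher and 16 lower. GALNS, a sulfatase of keratan sulfate breakdown, was at 33.8, 34.2 and 41.1 CPM in hypoxia and 10.3, 8.74 and 7.80 CPM in normoxia (log2 2.02 ± 0.15, adjusted p 1.22e-06 in edgeR). IDS, the iduronate sulfatase, was at 68.4, 75.0 and 68.2 CPM in hypoxia and 25.2, 26.7 and 23.3 CPM in normoxia (log2 1.49 ± 0.11). Both lie on the pathways of glycosaminoglycan breakdown, as does NAGLU, which fell.

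The largest falls in that list were deep. CTSO, a cysteine cathepsin, was at 0.526, 0.102 and 0 CPM in hypoxia, near the floor of 3 counts, and 7.03, 7.51 and 7.92 CPM in normoxia (adjusted p 1.46e-05). FUCA1, the alpha-fucosidase, was at 0.631, 0.407 and 0.660 CPM in hypoxia and 6.59, 7.09 and 8.26 CPM in normoxia (log2 -3.64 ± 0.29). Its hypoxia values also rest on few counts, the floor of 3 counts being 0.315, 0.305 and 0.180 CPM in those libraries. ARSB, the arylsulfatase that acts on dermatan sulfate, was at 3.89, 2.95 and 5.76 CPM in hypoxia and 26.7, 27.2 and 26.3 CPM in normoxia (log2 -2.62 ± 0.21).

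Of 17 further tested lysosomal membrane proteins, 6 were higher and 8 lower, or 82.4% called beside 62.2% of all tested genes. With library totals alone 3 were higher and 8 lower. LAPTM4B, a transmembrane protein of late endosomes, was at 14.4, 13.01 and 12.3 CPM in hypoxia and 48.6, 46.1 and 45.6 CPM in normoxia (log2 -1.83 ± 0.12, adjusted p 4.97e-07 in edgeR). The related cation channels TPCN1 and TPCN2 differed in sign, at log2 changes of -1.65 ± 0.12 and 0.78 ± 0.28, but the call of TPCN2 was lost without hypoxia replicate 2 (0.45, adjusted p 0.162), without normoxia replicate 1 (0.79, adjusted p 0.072), without normoxia replicate 3 (0.60, adjusted p 0.111) and with library totals alone (0.47, adjusted p 0.176). HGSNAT, the acetyltransferase that works with NAGLU on heparan sulfate, fell (-1.41 ± 0.13), and ABCB9, a peptide transporter, rose (1.36 ± 0.21).

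Of 7 further tested V-ATPase subunits, 4 were lower and none higher in edgeR, or 57.1% called beside 62.2% of all tested genes, and none was higher at an unadjusted p under 0.05. By DESeq2, 5 were lower and none higher. ATP6V0A2, the a2 subunit found on Golgi and endosomes, was at 4.20, 5.28 and 3.24 CPM in hypoxia and 16.3, 17.5 and 18.4 CPM in normoxia (log2 -2.06 ± 0.20, adjusted p 7.11e-06). Of 7 assembly factors, 2 were higher and 2 lower, which is also 57.1%, and with library totals alone 1 was higher and 3 lower. VMA21, which takes part in building V0 in the endoplasmic reticulum, was at 23.1, 15.04 and 17.6 CPM in hypoxia and 112, 111 and 105 CPM in normoxia, 5.89-fold lower in hypoxia (log2 -2.56 ± 0.15, adjusted p 1.92e-07). That difference was larger than for any of the 15 subunits and accessory proteins above. DMXL1 and DMXL2, partners in joining V1 to V0, rose by 0.61 and 0.39 on the log2 scale, and WDR7, which binds them, fell (-0.92). The DMXL2 call was lost with library totals alone (0.074, adjusted p 0.607), without the filter (0.27, adjusted p 0.113) and without normoxia replicate 3 (0.31, adjusted p 0.052).

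Of 10 genes for the delivery of enzymes to lysosomes, 2 were higher and 4 lower, or 60.0% called, near the 62.2% of all tested genes. With library totals alone 1 was higher and 4 lower. SORT1, the sorting receptor sortilin, was at 58.0, 66.6 and 90.6 CPM in hypoxia and 133, 146 and 139.9 CPM in normoxia (log2 -0.96 ± 0.15, adjusted p 0.000261 in edgeR). GNPTAB, the enzyme that starts the mannose 6-phosphate tag, and M6PR, a receptor for that tag, also fell (-0.70 ± 0.10 and -0.43 ± 0.10). The adaptors GGA2 and GGA1 rose (1.05 ± 0.10 and 0.53 ± 0.11). The GGA1 call was lost with library totals alone (0.21, adjusted p 0.152) and with the GC and length correction (0.16, adjusted p 0.22), and that of M6PR with that correction (-0.20, adjusted p 0.0908).

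Of 20 tested genes that control mTORC1 and TFEB at the lysosome, 9 were higher and 4 lower, or 65.0% called, close to the 62.2% of all tested genes. RRAGD, a Rag GTPase that brings TFEB to mTORC1, was at 227, 205 and 115 CPM in hypoxia and 23.0, 23.2 and 25.0 CPM in normoxia. It rose 7.67-fold (log2 2.94 ± 0.24, adjusted p 2.14e-05 in edgeR), and hypoxia replicate 3 was the lowest of the hypoxia libraries. FLCN, the activator of RRAGD and RRAGC, was at 25.0, 36.4 and 33.0 CPM in hypoxia and 12.5, 11.2 and 12.1 CPM in normoxia (log2 1.40 ± 0.16). Within mTORC1 itself, the scaffold RPTOR was at 191, 192 and 209 CPM in hypoxia and 89.9, 84.7 and 88.1 CPM in normoxia (log2 1.17 ± 0.088), while the kinase MTOR was at 5.68, 7.22 and 9.00 CPM in hypoxia and 27.0, 26.6 and 29.3 CPM in normoxia (log2 -1.90 ± 0.17, adjusted p 4.86e-06). ZKSCAN3, described as a repressor of TFEB target genes, fell (-1.76 ± 0.20). With library totals alone the split of this list was 8 higher and 7 lower.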

How the data were processed

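The authors deposited raw read counts per Ensembl gene, which are the values used here. Per the submitters' processing notes, reads were handled with fastp 0.20.1, HISAT2 2.1.0, featureCounts 2.0.1 and DESeq2 1.37.5 on GRCh38.p13. Neither the strand setting nor the annotation release is named in the sources. RNA of integrity number at least 9.0 went into NEBNext Ultra II libraries, per the labels' protocols. A deposited table of normalized values, whose cells run together, was not used. 1 row that names no gene, with 0.00243% of counts, was left out.

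Counts were tested with edgeR 4.0.16 (TMM factors 0.866 to 0.927 in hypoxia and 1.07 to 1.16 in normoxia, filterByExpr with minimum count 10 and minimum total 15, robust quasi-likelihood F test) in R 4.3.3, with Benjamini-Hochberg adjustment over 16411 genes and a threshold of 0.05. The biological coefficient of variation was 15.3%. SE was computed as the absolute log2 change over the square root of F. CPM uses TMM-scaled totals. Symbols matched 61756 IDs, and exon lengths, overlaps and coordinates are from GENCODE 29 (58307 IDs). No replicate pair was within sampling noise (chi-square of at least 5.75 per gene). Same-numbered libraries did not deviate together (r -0.106, 0.0864 and -0.0378), so their numbers were not taken as pairs.

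The members and gene lists were chosen with earlier results of these data known. Given in full were the regulators, in each other class the 3 largest called rises and falls without overlap, and the 5 members highest per kilobase. Of each further list, up to 3 called genes were named in the direction with more calls and up to 2 in the other, at a mean CPM of at least 1. Alternatives were other scalings, DESeq2 1.42.0, limma 3.58.1, other filters, a replicate block, a threshold of 0.01, a GC and length correction and leaving out each library.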

Additional observations from a re-analysis of the deposited data

How the results depend on the processing

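All 25 called members kept their direction under the 18 alternatives other than the threshold of 0.01, and 18 of them also kept their call. Library totals alone gave 19 members lower, against 11 with TMM, as the median of all tested genes moved to -0.30 on the log2 scale. Without the filter that median was -0.11, and 13 members were higher and 14 lower. At a threshold of 0.01, 14 were higher and 8 lower, and with DESeq2 14 and 11. With the GC and length correction 18 members were higher and 10 lower. The median log2 change was then 0.14 for the members and 0.039 for all tested genes. Leaving out each library gave 9065 to 10913 called genes, of which 13 to 15 higher and 9 to 14 lower members, and 23 to 28 higher and 32 to 36 lower genes of the further lists. A replicate block gave 14 members higher and 11 lower and 9769 called genes in all, changing no call of a member.

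Members that were not called turned direction in some alternatives, and the cause was not tested. With library totals alone log2 differences were -0.12 for CD63, -0.18 for CTSK, -0.057 for CTSZ, -0.23 for ATP6V1B2, -0.28 for ATP6V1C1, -0.27 for ATP6V1D and -0.086 for ATP6V1G1. With the GC and length correction they were 0.24 for LAMP2, then called higher, 0.042 for SCARB2 and 0.14 for ATP6V1E1. Without the filter they were -0.045 for ATP6V1B2, -0.094 for ATP6V1C1 and -0.080 for ATP6V1D. For ATP6V1C1 and ATP6V1D they were -0.040 and -0.024 with upper-quartile scaling and -0.021 and -0.0087 with DESeq2. With limma on log2 counts over size factors, an alternative chosen after seeing the data in place of the planned limma on the deposited normalized values, which was not run, they were -0.025 and -0.0097 with a pseudocount of 1 or 0.1, and -0.078 and -0.083 for CTSK. Leaving out 1 library gave -0.54 to 0.36 for CTSK, -0.40 to 0.055 for HEXA, -0.20 to 0.063 for ATP6V0A1, -0.43 to 0.15 for ATP6V0C, -0.024 to 0.053 for ATP6V1C1 and -0.053 to 0.099 for ATP6V1D.

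With 3 libraries a group, CTSK, ATP6V0C and MCOLN1, at 1.20 to 8.45 CPM, were the least precise members.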
